A study of Rattus norvegicus with 36 samples.

Results

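The comparison described here is that of aorta from S2Ba congenic rats with aorta from the parental SS strain, both on the normal salt diet. It was made by taking the libraries whose labels name the strain and the diet, which gave 6 S2Ba and 6 SS libraries, 12 of the 34 for which values were held (the labels list 36 samples). SS is the Dahl salt-sensitive rat, an inbred strain whose blood pressure rises on a salty diet. S2Ba is a congenic rat on that background in which the distal portion of chromosome 2 comes from the Brown Norway (BN) rat. By that design both groups share the SS genome elsewhere, which was not tested here. The animals were male, entered the study at 4 to 6 weeks of age and stayed on their diet until they were 12 to 13 weeks old. Total RNA of a piece of the thoracic descending aorta was sequenced. Groups used for comparison were S2Bb on normal salt (n = 6), a congenic rat with a middle segment of BN chromosome 2, and SS (n = 5) and S2Ba (n = 5) on a high salt diet with 4% NaCl. The labels used here give neither the ends of the BN segments nor the salt content of the normal diet, and they do not say in words that each library is a separate animal, and p-values therefore describe only variation among these libraries, which may be technical.

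A congenic strain carries a chromosome segment of a donor strain on the genome of another, so that the genes inside the segment have donor alleles. Distal rat chromosome 2 holds several genes with known roles in vessels. Among them are Enpep, an aminopeptidase that removes the first residue of angiotensin II, and Ddah1, which breaks down methylarginines that inhibit nitric oxide synthase. The smooth muscle layer makes up most of the aortic wall, and a bulk RNA sample also holds endothelium, adventitial fibroblasts, leukocytes and perivascular fat. In such samples a smaller number of cells of a type and less RNA per cell cannot be told apart.

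Depth was 10315509 to 14408310 reads in the S2Ba libraries and 8753735 to 13398098 in the SS libraries (exact permutation test over the 12 libraries, 2-sided p = 0.472). All 22 smooth muscle contractile genes looked for were measured, with summed normalised read values (read counts divided by a size factor of the library) of 37728 to 44449 in SS and 38142 to 48343 in S2Ba, while the 8 cardiac muscle markers summed to 0.326 to 4.14 over all 12 libraries. SS replicates 1 and 2 stood apart: 20924 and 22207 genes had at least 1 read there, against 15645 to 17151 in each of the 32 other libraries of the series. The remaining SS libraries had 16540 to 16953 such genes and the S2Ba libraries 15645 to 16726. The number of detected genes differed between the groups (exact permutation test over all 12 libraries, 2-sided p = 0.00866). Reads in the genes left out of the test for low values were 0.191% and 0.294% of all reads in these libraries, and 0.0601% to 0.0822% in the 10 others. SS replicate 3 stood apart in another way, described with the genes it touches. For each named gene whose call ends without SS replicates 1 and 2, the adjusted p without them is given; without SS replicate 3 all 36 calls held.

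Few genes were called between the strains on normal salt. Of the 6 called with a difference of at least 2-fold, 5 lay close together towards the distal end of chromosome 2. Of 13475 tested genes 36 were called, at an adjusted p under 0.05 in limma, which is 0.267% of the genes tested. In S2Ba 16 of them were higher (0.119%) and 20 lower (0.148%). Fold changes are on the fitted scale, log2 of the value plus 0.5, which understates the change of low genes. For 16 of the 36 no S2Ba library overlapped the SS range, against 63 (0.468%) of all tested genes. At an unadjusted p under 0.05 there were 1960 genes (14.5%), 888 higher (6.59%) and 1072 lower (7.96%). Without SS replicates 1 and 2 the count was 20 (0.148% of tested genes, 0.0668% higher and 0.0816% lower), of which 14 were among the 36 (7 of the 9 in the stretch described next and 7 of the 27 others), and without SS replicate 3 it was 306 (2.27%, 1.37% higher and 0.898% lower), which included all 36. Without S2Ba replicate 4 it was 158, and without SS replicate 4 it was 9.

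Of the genes that could be matched to a chromosome, 13 of 816 on chromosome 2 were called (1.59%) and 21 of 11490 elsewhere (0.183%), and 2 called genes were not matched. Along chromosome 2, in the gene order of the RefSeq rat assembly GRCr8, 9 of the 13 fell in the stretch from Enpep to Ddah1, which holds 65 tested genes. The called share of that stretch was 13.8%, against 4 of 751 (0.533%) on the rest of the chromosome. Beyond Ddah1, towards the end of the chromosome, 0 of 43 tested genes were called in limma. There 10 (23.3%) had an unadjusted p under 0.05, against 14.5% of all tested genes. On high salt 3 of the 43 were called, where 1.73% of all tested genes were. With so few genes, 0 calls cannot show that the differences end at Ddah1. The ends of the stretch were chosen after the values were seen, so these shares describe it and are not tested. Within it 21 genes (32.3%) had an unadjusted p under 0.05, and 3 called genes were higher and 6 lower in S2Ba. The plot of fold change along chromosome 2 shows the called genes side by side with genes that did not pass.

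**Figure D1:**
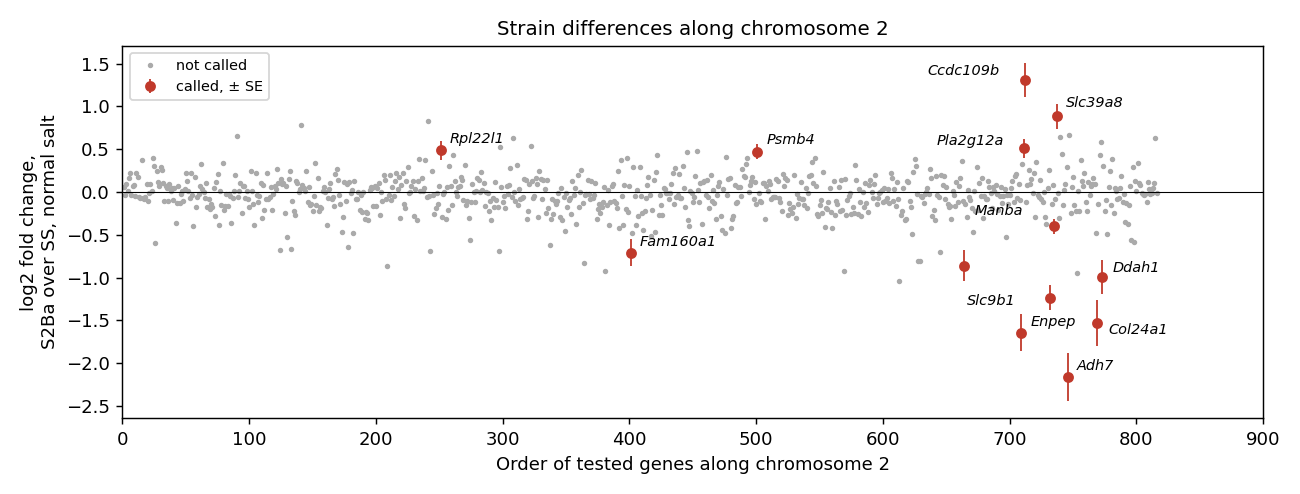
Log2 fold change of S2Ba over SS on normal salt (y axis, log2 of value plus 0.5) for the 816 tested chromosome 2 genes in their order along the chromosome (x axis, rank). Grey points were not called, and red points with bars of 1 SE are the 13 called genes, 9 of which lie between Enpep and Ddah1; 12 are labelled.

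In the stretch, the gene with the best known link to blood pressure was Enpep (ENSRNOG00000051854), which encodes aminopeptidase A, the enzyme that converts angiotensin II to angiotensin III. Its lowest, median and highest normalised read values were 12.5, 14.3 and 23.1 in S2Ba and 44.9, 50.3 and 54.5 in SS. Every S2Ba library lay below every SS library. The log2 fold change was -1.65 (SE 0.22, limma adjusted p = 3.9e-05, n = 6 each). The flanking tested genes were Ap1ar, at 16.8 ± 1.505 in S2Ba and 18.01 ± 2.47 in SS (mean ± SD, adjusted p = 0.681), and Gar1, at 1.40 ± 0.426 and 1.09 ± 0.606 (adjusted p = 0.474).

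Next to it along the chromosome, separated by Gar1, stand Pla2g12a and Ccdc109b, both higher in S2Ba. Ccdc109b (ENSRNOG00000009433, Mcub in RefSeq) encodes the paralogue of the mitochondrial calcium uniporter pore that lowers calcium uptake when it joins the channel. Its lowest, median and highest values were 3.54, 4.89 and 6.50 in S2Ba and 1.37, 1.57 and 2.28 in SS. The groups did not overlap, and the log2 fold change was 1.31 (SE 0.20, limma adjusted p = 0.000522). Pla2g12a, a secreted phospholipase A2, had 9.70, 12.7 and 16.3 in S2Ba and 7.28, 9.02 and 9.85 in SS. Its groups overlapped at the edge, its log2 fold change was 0.51 (SE 0.11, limma adjusted p = 0.0352), and it was called in 5 of the 12 fits that left out 1 library. Without SS replicates 1 and 2 its adjusted p was 0.0557. Sec24b and Ostc, the next genes on the other side, had adjusted p of 0.690 and 0.808.

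Further along, 3 called genes lie within a run of 6 tested genes. Slc9b1 (ENSRNOG00000042985), a member of the sodium-proton exchanger family known in mice for its part in sperm motility, had 1.46, 1.66 and 1.95 in S2Ba and 3.36, 4.55 and 6.50 in SS. All 6 S2Ba libraries were below the lowest SS library, with a log2 fold change of -1.23 (SE 0.14, limma adjusted p = 3.52e-06). Slc9b1 overlaps Cisd2 in the annotation, and whether reads were counted by strand is not given in the sources used here. Cisd2 itself was at 28.6 ± 3.16 in S2Ba and 31.5 ± 2.15 in SS (adjusted p = 0.506). Slc9b2, the paralogue on the other side, was at 11.9 ± 3.52 and 9.996 ± 3.08 (adjusted p = 0.581).

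Slc39a8 (ENSRNOG00000012508) encodes ZIP8, an importer of zinc and manganese. Its lowest, median and highest values were 6.63, 8.58 and 9.68 in S2Ba and 3.801, 4.21 and 4.97 in SS. The groups were apart, and the log2 fold change was 0.88 (SE 0.15, limma adjusted p = 0.00177). Manba, the lysosomal beta-mannosidase, was lower in S2Ba, at 20.8, 23.1 and 24.7 against 27.01, 30.3 and 35.04. Its libraries did not overlap either, its log2 fold change was -0.40 (SE 0.09, limma adjusted p = 0.0399), and it was called in 4 of the 12 fits that left out 1 library. Its adjusted p without SS replicates 1 and 2 was 0.124. Between Manba and Slc39a8 stands Nfkb1, a subunit of the inflammatory transcription factor NF-kappaB, at 85.2 ± 9.12 in S2Ba and 89.7 ± 7.08 in SS (log2 fold change -0.08, adjusted p = 0.660).

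Adh7 (ENSRNOG00000032959), a class IV alcohol dehydrogenase that also oxidises retinol, was lower in S2Ba. No S2Ba library held a read of it (0 in total), while SS held 123, and there values ran from 0.365 over a median of 2.02 to 2.94. Against a floor of 3 counts over the S2Ba group, the level was at least 43.5-fold lower, a bound that covers counting error only. The limma adjusted p was 3.62e-05. The adjacent Adh6 had a mean of 27.8 ± 5.43 in S2Ba and 17.6 ± 4.70 in SS and did not pass (adjusted p = 0.267), nor did Adh5, at 16.7 ± 3.27 and 19.9 ± 3.75 (adjusted p = 0.463).

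At the far end of the stretch were Col24a1 and Ddah1. Col24a1, a fibrillar collagen chain, had 0.0842, 0.159 and 0.489 in S2Ba and 0.711, 1.46 and 3.96 in SS, with no overlap (log2 fold change -1.53, SE 0.27, limma adjusted p = 0.0044). Its highest SS value came from SS replicate 2, and without SS replicates 1 and 2 the log2 fold change was -1.25. Ddah1 had 15.1, 25.03 and 39.9 in S2Ba and 40.4, 50.9 and 63.4 in SS. The ranges nearly touched, the log2 fold change was -0.99 (SE 0.20, limma adjusted p = 0.02), and the gene was called in 7 of the 12 fits that left out 1 library. Hs2st1, a sulfotransferase of heparan sulfate in the same stretch that the study singled out, was at 24.02 ± 2.92 in S2Ba and 22.6 ± 3.77 in SS (log2 fold change 0.09, adjusted p = 0.763).

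The regions just before the start sites of 4 genes are printed, those of the stretch that were called under each alternative that could be run for them, other than Slc9b1. They show what lies there in the BN rat, the strain of the reference and the donor of the segment. The sequences are from RefSeq on GRCr8, 250 bases upstream of the gene start, 5′ to 3′ along the gene. The sequences of the SS alleles were not used here. Capitals mark the letters TATAAA or TGACAG on either strand, the first a core promoter motif and the second the core site of the MEIS homeobox family; the motifs share no overlap. Enpep lies on the minus strand at chr2:220526219-220526468, Ccdc109b on the minus strand at chr2:221223815-221224064, Slc39a8 on the plus strand at chr2:226929941-226930190 and Adh7 on the plus strand at chr2:229421875-229422124.
Enpep: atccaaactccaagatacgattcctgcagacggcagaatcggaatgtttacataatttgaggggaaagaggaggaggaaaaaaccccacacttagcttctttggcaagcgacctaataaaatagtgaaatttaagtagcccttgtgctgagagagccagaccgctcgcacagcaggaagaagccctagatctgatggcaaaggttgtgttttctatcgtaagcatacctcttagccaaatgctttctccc
Ccdc109b: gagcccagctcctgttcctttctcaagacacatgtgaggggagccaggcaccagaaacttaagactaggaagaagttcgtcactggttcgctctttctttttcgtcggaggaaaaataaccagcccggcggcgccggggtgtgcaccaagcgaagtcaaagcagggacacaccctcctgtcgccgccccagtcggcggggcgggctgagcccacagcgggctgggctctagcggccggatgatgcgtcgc
Slc39a8: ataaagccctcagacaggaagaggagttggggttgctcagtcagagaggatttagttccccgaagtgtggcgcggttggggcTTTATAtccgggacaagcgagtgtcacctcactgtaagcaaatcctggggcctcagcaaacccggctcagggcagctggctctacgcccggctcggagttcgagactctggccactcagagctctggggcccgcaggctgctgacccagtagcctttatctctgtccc
Adh7: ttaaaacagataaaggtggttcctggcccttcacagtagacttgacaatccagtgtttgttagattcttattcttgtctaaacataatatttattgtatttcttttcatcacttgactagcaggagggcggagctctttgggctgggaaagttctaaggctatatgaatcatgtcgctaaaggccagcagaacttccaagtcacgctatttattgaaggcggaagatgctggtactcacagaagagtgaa
In these windows TATAAA occurred 1 time, on the opposite strand (as TTTATA) before Slc39a8, and TGACAG 0 times. Of the 33469 upstream windows of this length in the table, 12.9% held TATAAA and 15.8% TGACAG. In the order printed, GC content was 45.2%, 61.6%, 59.2% and 40.8%, against a median of 51.2% over all windows, and CpG pairs numbered 7, 19, 11 and 4 against a median of 5.

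On the rest of chromosome 2, 4 genes were called, of which Psmb4, Fam160a1 and Rpl22l1 are described. Psmb4, a subunit of the proteasome core, had 90.7, 107.9 and 123.2 in S2Ba and 65.5, 76.3 and 104.9 in SS (log2 fold change 0.47, SE 0.09, limma adjusted p = 0.0065). The one SS library inside the S2Ba range was replicate 3. Fam160a1 was lower, at 0.688 ± 0.143 against 1.45 ± 0.271, and the ribosomal protein paralogue Rpl22l1 was higher, at 32.6 ± 4.10 against 23.2 ± 3.71 (limma adjusted p = 0.0392 and 0.0399). Each of these was surrounded by genes that did not pass, with an adjusted p of at least 0.105 in the 12 nearest tested neighbours. Without SS replicates 1 and 2 the adjusted p was 0.0593 for Psmb4, 0.0755 for Fam160a1 and 0.139 for Rpl22l1.

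Off chromosome 2, the gene with the smallest adjusted p was Meis1 (ENSRNOG00000004606) on chromosome 14, a homeobox transcription factor of the TALE class that binds DNA with Hox and Pbx proteins. Its lowest, median and highest values were 114.8, 129.2 and 158.0 in S2Ba and 63.6, 71.1 and 99.1 in SS. Every S2Ba library lay above every SS library, and the log2 fold change was 0.78 (SE 0.09, limma adjusted p = 3.52e-06). Its neighbours Wdr92, C1d, Etaa1, Spred2, Actr2 and Rab1a, looked up after the values were seen, were not called (adjusted p of at least 0.219). Of 23 tested TALE and Hox genes Meis1 was the one called. Hoxc5 was at 1.74 ± 0.791 in S2Ba and 2.80 ± 0.913 in SS (adjusted p = 0.174), and Pbx3, a partner of Meis proteins, at 14.6 ± 0.390 and 16.6 ± 0.816 (adjusted p = 0.367).

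**Figure D2:**
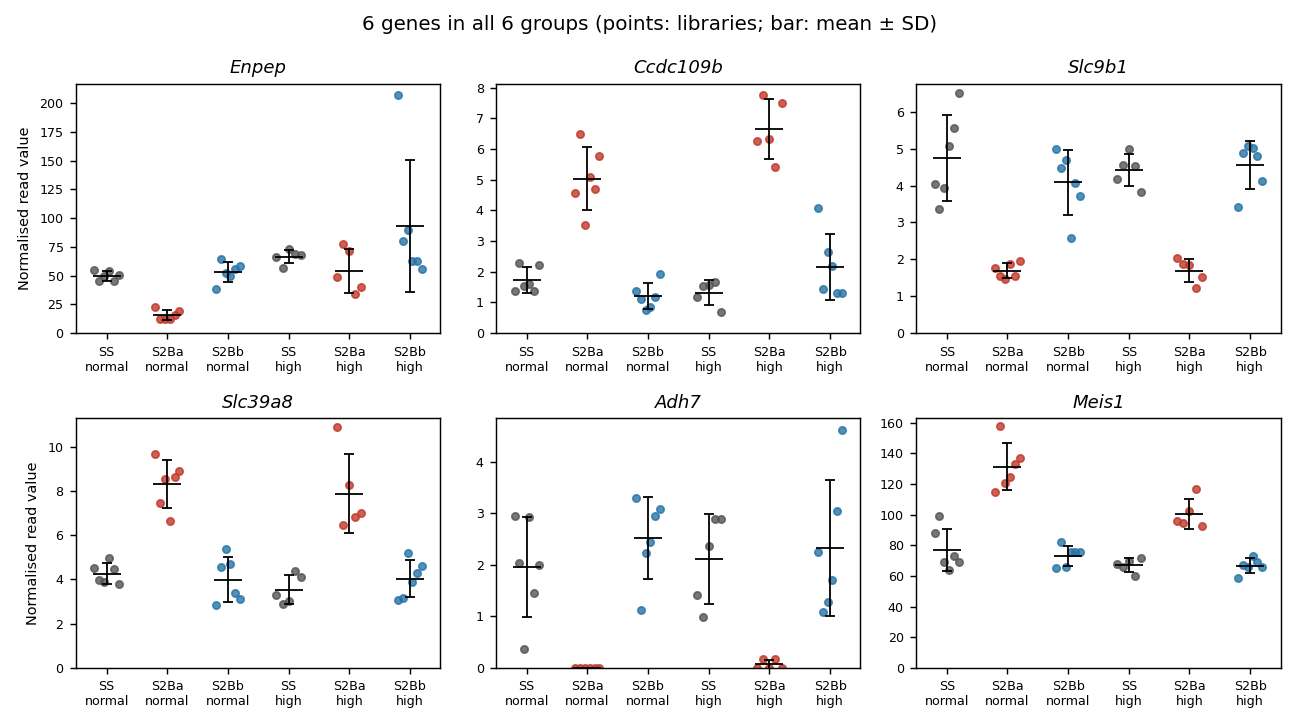
Normalised read values (y axis, linear from 0) of the 6 genes called in all alternatives that were run, in each library of the 6 groups by strain and diet (x axis). Points are libraries and black bars the mean ± SD; in 5 of the 6 panels the S2Ba libraries stand apart from SS on both diets, and in the Enpep panel on normal salt alone.

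These 6 genes, Enpep, Ccdc109b, Slc9b1, Slc39a8, Adh7 and Meis1, were called under each alternative that could be run for them, and they were also the 6 called when the fit held the 12 libraries alone. Col24a1, Psmb4 and Cd163l1 were in addition called in every fit that left out 1 library.

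On other chromosomes, 10 genes were called lower in S2Ba. The called genes not matched to a chromosome, AABR07035796.1 and AABR07035273.1, were also lower, at 4.65 ± 0.724 against 7.58 ± 1.42 in SS and at 5.43 ± 1.27 against 8.64 ± 2.09, and the first had an adjusted p of 0.0585 without SS replicates 1 and 2. Cd163l1, a scavenger receptor of the cysteine-rich family, had 0.0855, 0.219 and 0.552 in S2Ba and 0.400, 1.30 and 2.84 in SS (log2 fold change -1.25, SE 0.23, limma adjusted p = 0.0065). Its groups overlapped at the edge. Ikzf3, a lymphoid transcription factor, was at 0.209 ± 0.174 against 0.888 ± 0.293 (limma adjusted p = 0.0201, and 0.0755 without SS replicates 1 and 2). Of the markers of macrophages, T and NK cells and B and plasma cells, 12, 4 and 1 could be tested and none was called, and the summed macrophage level was 419.6 to 678 in S2Ba and 461.9 to 547 in SS. The part of leukocyte number in the values of Cd163l1 and Ikzf3 was not tested.

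Sox18, an endothelial transcription factor that acts early in lymphatic vessel formation, had 1.22, 2.72 and 3.45 in S2Ba and 3.70, 4.45 and 7.33 in SS. The groups did not overlap (log2 fold change -0.86, SE 0.19, limma adjusted p = 0.0352), and without SS replicates 1 and 2 the adjusted p was 0.137. A list of 14 lymphatic endothelial markers was made after this was seen. In it 1 was called lower, where 0.148% of all tested genes were. Of the 14, 0 had a positive fold change and the median log2 fold change was -0.59, against -0.03 over all tested genes. The summed level of the list ran from 595.9 to 835.2 in SS (median 732.5) and from 477.5 to 774.2 in S2Ba (median 722.9). On high salt 0 were called and the median log2 fold change was -0.21. Prox1, which sets lymphatic identity, was at 1.09 ± 0.846 in S2Ba and 2.64 ± 0.711 in SS (adjusted p = 0.0701), and Mmrn1, at 13.6 ± 9.81 and 30.3 ± 6.69, had an adjusted p of 0.0876. Without SS replicate 3, 4 were called lower, namely Sox18, Prox1, Mmrn1 and Reln, where 0.898% of all tested genes were. Without SS replicates 1 and 2 none (0) was. Of 11 endothelial markers none was called (Kdr, a receptor for VEGF, 11.3 ± 7.33 against 16.1 ± 5.67), all 11 had a negative fold change and the median was -0.19.

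The remaining genes called lower were Rfx2, a transcription factor of ciliated cells, at 3.26 ± 1.43 in S2Ba and 6.69 ± 1.89 in SS, the actin-binding protein gene Avil, at 2.21 ± 0.822 and 4.21 ± 0.868, the adhesion protein gene Amigo2, at 12.6 ± 3.88 and 22.6 ± 5.51, Tada2b of the SAGA transcription complex, at 29.6 ± 1.94 and 37.2 ± 2.69, Ccdc9, at 20.7 ± 3.45 and 30.5 ± 3.71, the splicing factor gene Hnrnpm, at 49.98 ± 9.27 and 72.6 ± 7.64, and the protease gene Ddi2, at 134.3 ± 13.98 and 174.3 ± 18.05. Their limma adjusted p-values ran from 0.0283 for Rfx2 to 0.0352 for Ddi2. Without SS replicates 1 and 2 the adjusted p was 0.0769 for Avil, 0.113 for Amigo2, 0.0755 for Tada2b, 0.126 for Ccdc9 and 0.110 for Hnrnpm, while Rfx2 and Ddi2 were still called. The libraries were apart for Tada2b and Ccdc9. Avil, Tada2b, Amigo2, Ccdc9 and Hnrnpm each overlap another annotated gene, namely Tsfm, Grpel1, Pced1b, Inafm1 and Pram1, and reads from such pairs cannot be told apart unless they were counted by strand. In all, 16 of the 36 called genes overlap another RefSeq gene.

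On other chromosomes, 10 genes besides Meis1 were called higher in S2Ba, among them genes of the ribosome, the respiratory chain and cholesterol synthesis. Rpl18, of the large ribosomal subunit, was at 221.1 ± 14.4 in S2Ba and 175.7 ± 28.5 in SS, and Rplp0 at 936.1 ± 80.7 and 751.3 ± 86.6. Atp5g1, subunit c of the mitochondrial ATP synthase, was at 36.9 ± 3.21 and 26.5 ± 5.69, and Txn1, the antioxidant thioredoxin, at 92.7 ± 13.6 and 66.2 ± 17.97. Map1lc3a, a protein of autophagosome membranes, was at 150.6 ± 8.87 and 119.6 ± 17.6, Wdr83os at 46.7 ± 3.73 and 34.6 ± 5.97, Maged2 at 98.1 ± 10.2 and 67.05 ± 12.4, and RGD1559909 at 22.3 ± 1.69 and 16.4 ± 2.39. Sqle, squalene epoxidase of cholesterol synthesis, was at 18.9 ± 7.30 and 9.26 ± 3.62, with a log2 fold change of 0.98 (SE 0.22). The limma adjusted p-values of the 9 genes named here lay between 0.0346 and 0.0399. Without SS replicates 1 and 2 Sqle was still called, and the other named genes were not, with adjusted p-values from 0.0532 for Atp5g1 to 0.148 for Rplp0 (0.113 for Rpl18, 0.0583 for Txn1, 0.0791 for Map1lc3a, 0.0557 for Wdr83os, 0.107 for Maged2 and 0.110 for RGD1559909). Ribosomal protein genes and Txn1 have many near-identical copies in rodent genomes, and how reads matching several copies were counted is not given in the sources used here.

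**Figure D3:**
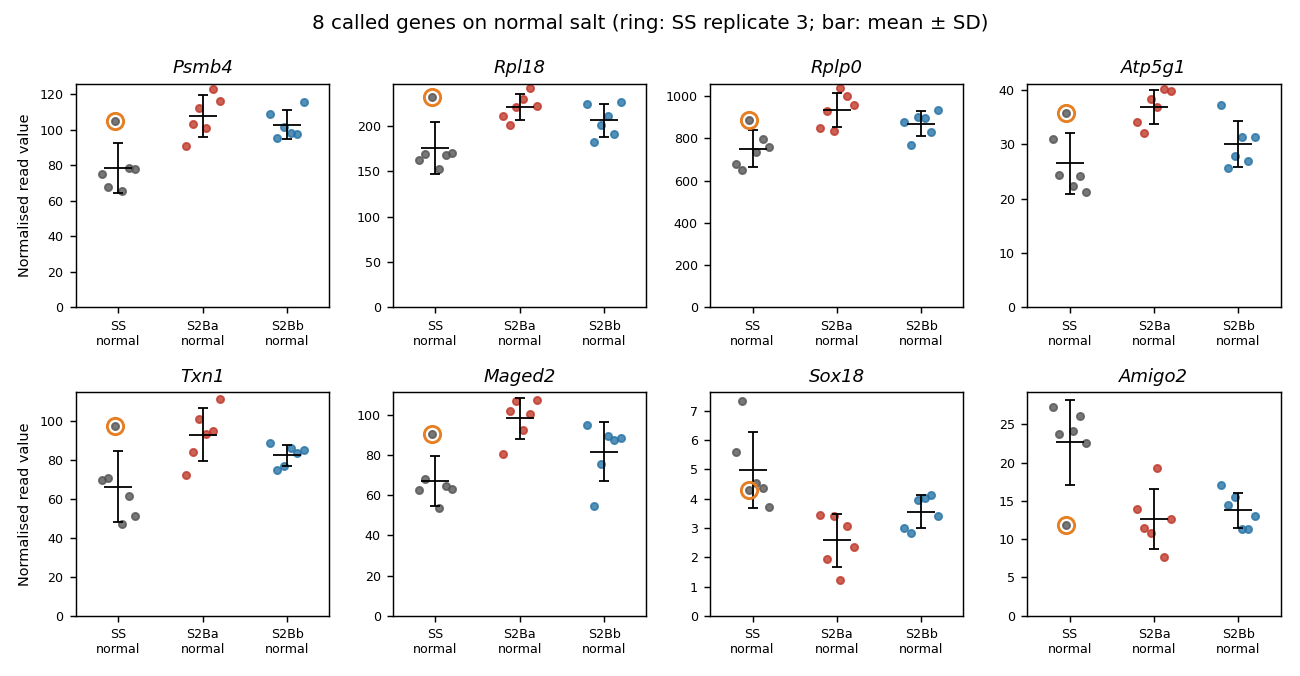
Normalised read values (y axis, linear from 0) of 8 called genes on normal salt in SS, S2Ba and S2Bb (x axis), with points for libraries, bars for the mean ± SD and an orange ring around SS replicate 3. For 7 of the 8 genes the ringed library lies within the S2Ba range, and for Sox18 it lies with the other SS libraries.

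SS replicate 3 had values within the S2Ba range for 15 of the 36 called genes, 10 that were higher and 5 that were lower in S2Ba. None of the 15 was in the stretch on chromosome 2. For Rpl18 this library read 232.3, while the other 5 SS libraries ran from 152.1 to 170.2. Without it the log2 fold change of Rpl18 went from 0.34 to 0.43 and its adjusted p to 0.0002, and those of Psmb4 from 0.47 to 0.56 and to 6.7e-05.

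The lists to which these genes belong held few calls beside them, where 0.119% of all tested genes were called higher. More of their genes were higher at an unadjusted p under 0.05 in limma, where 6.59% of all tested genes were. These were 53 of the 71 ribosomal, 13 of the 34 proteasome and 12 of the 24 cholesterol synthesis genes, with 1, 1 and 0 lower. Of 71 ribosomal protein genes tested, a list made after the values were seen, 4 were called higher, 67 had a positive fold change and the median log2 fold change was 0.24. Without SS replicates 1 and 2, 0 of the 71 were called in limma and the median was 0.21, and without SS replicate 3, 27 were called higher, where 1.37% of all tested genes were. Of 41 subunits of oxidative phosphorylation 1 was called higher (Atp5g1), 38 were positive and the median was 0.21, with 20 higher at an unadjusted p under 0.05 (6.59% of all tested genes were) with 6 called without SS replicate 3 and 0 without SS replicates 1 and 2, where the median was 0.24. Ndufa4 of the respiratory chain was at 83.4 ± 11.5 in S2Ba and 63.7 ± 11.2 in SS (adjusted p = 0.0808). Of 34 proteasome genes, also listed afterwards, 1 was called (Psmb4), 29 were positive and the median was 0.13, and 6 were called without SS replicate 3 and 1 (Psmb2, not Psmb4) without SS replicates 1 and 2. Of 24 cholesterol synthesis genes, listed afterwards, 1 was called (Sqle), 22 were positive and the median was 0.36. Hmgcs1, which makes the substrate of the rate-limiting enzyme, was at 142.0 ± 42.0 in S2Ba and 81.4 ± 19.1 in SS (adjusted p = 0.0786), and without SS replicate 3 Sqle, Hmgcs1, Mvk and Msmo1 were called, and without SS replicates 1 and 2 only 1 member was, Sqle. Across all tested genes 5916 of 13475 had a positive fold change. The share of reads taken by the most abundant gene was 18.3% ± 2.91 in S2Ba and 18.3% ± 2.69 in SS.

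**Figure D4:**
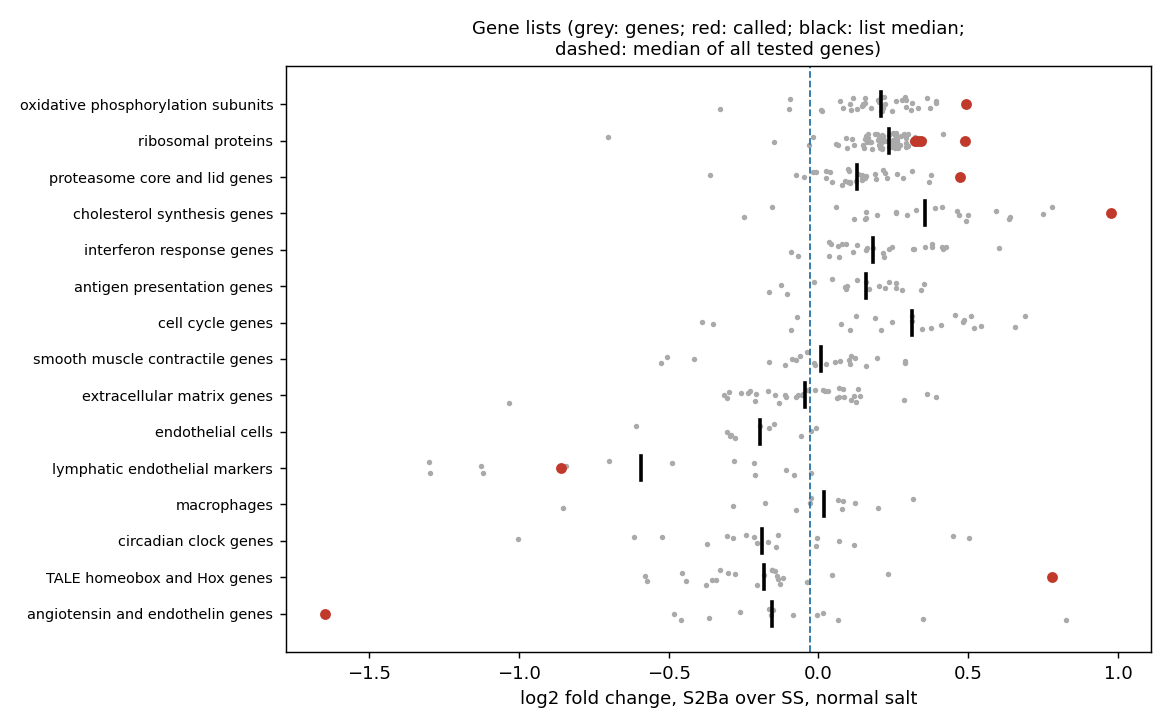
Log2 fold change of S2Ba over SS on normal salt (x axis) for the tested genes of 15 lists (rows). Grey points are genes that were not called, red points called genes, black bars list medians and the dashed line the median of all tested genes, -0.03; the ribosomal, oxidative phosphorylation and cholesterol lists lie to the right of it and the lymphatic markers to the left.

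The lists made for Enpep, Ccdc109b, Slc9b1, Slc39a8 and Adh7 held no call beside these genes. Of 14 tested angiotensin and endothelin genes 1 was called lower (Enpep). Agtr1b, a receptor for angiotensin II, was at 14.8 ± 2.78 in S2Ba and 8.40 ± 2.90 in SS (adjusted p = 0.0683, and 0.0227 without SS replicate 3), while Agtr1a was at 11.9 ± 0.877 and 13.5 ± 2.24. Of 14 genes of the mitochondrial calcium uniporter and its partners 1 was called higher (Ccdc109b), and the pore gene Mcu was at 20.6 ± 3.63 and 25.5 ± 2.95 (adjusted p = 0.184). Of 12 sodium-proton exchanger genes 1 was called lower (Slc9b1), of 22 metal ion transporter genes 1 higher (Slc39a8), and of 27 alcohol dehydrogenase and retinoid genes 1 lower (Adh7). Slc40a1, the iron exporter, was at 1.37 ± 0.311 and 2.27 ± 0.714 (adjusted p = 0.222).

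Other lists held no called gene in limma. Over all tested genes 6.59% were higher and 7.96% lower at an unadjusted p under 0.05, beside which the counts below stand. Of 25 inflammatory mediators and adhesion genes 1 was higher and 1 lower at an unadjusted p under 0.05; Cxcl12, a chemokine, was at 42.9 ± 12.8 in S2Ba and 61.7 ± 14.1 in SS (adjusted p = 0.159, and 0.0477 without SS replicate 3), and Tlr2, an innate immune receptor, at 12.0 ± 3.69 and 9.03 ± 2.28. Of 27 interferon response genes 25 were positive, with a median log2 fold change of 0.18 and 5 higher at an unadjusted p under 0.05. Ifi27 was at 172.7 ± 28.6 and 134.7 ± 20.7 (adjusted p = 0.0876, and 0.0129 without SS replicate 3), and Ifit2 at 27.99 ± 4.18 and 22.4 ± 3.34. Of 19 antigen presentation genes 15 were positive, with 2 higher at an unadjusted p under 0.05, among them RT1-A2 at 32.4 ± 7.10 and 26.3 ± 3.49. Of 23 cell cycle genes 19 were positive with a median of 0.31, and 3 were higher at an unadjusted p under 0.05, including the replication helicase gene Mcm6 at 7.85 ± 1.61 and 5.23 ± 1.13 (adjusted p = 0.139).

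The contractile, matrix and heparan sulfate lists, which do not hold Col24a1, had no called gene in limma. Of 22 smooth muscle contractile genes 11 were positive, and the median was 0.01. Synpo2 was at 445.7 ± 162 in S2Ba and 611.6 ± 117 in SS (adjusted p = 0.174), Smtn, smoothelin, at 314.3 ± 91.0 and 405.1 ± 40.7, and Tagln, transgelin, at 5280 ± 531 and 4356 ± 674. Of 36 extracellular matrix genes 16 were positive and the median was -0.04. Fbn2, fibrillin-2, was at 0.245 ± 0.277 and 1.12 ± 0.804 (adjusted p = 0.104, and 0.0407 without SS replicate 3), Col6a3 at 279.3 ± 68.4 and 338.2 ± 48.4, and the matrix protein gene Sparc at 12085 ± 1649 and 9321 ± 1950.4. Of 17 heparan sulfate genes 1 was higher and 2 lower at an unadjusted p under 0.05 (6.59% and 7.96% of all tested genes were). Extl2 was at 17.7 ± 3.98 and 13.6 ± 2.78 (adjusted p = 0.212).

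Of 18 clock genes 4 were positive, and the median was -0.19. Per2 was at 50.1 ± 16.3 in S2Ba and 100.4 ± 26.7 in SS (adjusted p = 0.184) and Cry2 at 44.0 ± 5.39 and 57.4 ± 8.80. Among 17 immediate early genes, which answer to handling and tissue collection, none reached an unadjusted p under 0.05 (14.5% of all tested genes did). Junb was at 115.2 ± 53.0 and 71.5 ± 47.9. Of 15 glucocorticoid response genes Mt2A, a metallothionein, was at 7.20 ± 1.28 and 3.78 ± 1.01 (adjusted p = 0.291). No gene of the lists for fibroblasts, mesothelium, mast cells, adipocytes, erythroid cells, cardiac or skeletal muscle, or Schwann cells and neurons was called. The summed adipocyte level ran from 233.4 to 2313 in S2Ba and from 304.7 to 1201 in SS.

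On high salt, in other libraries of the same strains, the genes of the stretch kept their direction. Of the 36 genes, 7 were also called there in the same direction, which is 19.4% of the normal salt list and 3.004% of the 233 genes called on high salt (1.73% of those tested, 0.757% higher and 0.972% lower). Of the 9 called genes of the stretch 9 had the same sign and 5 were called, with a median absolute log2 fold change of 1.23 on normal and 1.05 on high salt. Of the 27 others 21 had the same sign and 2 were called, Meis1 and Ddi2, and the median absolute values were 0.55 and 0.13. The 36 genes were chosen by their normal salt values.

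**Figure D5:**
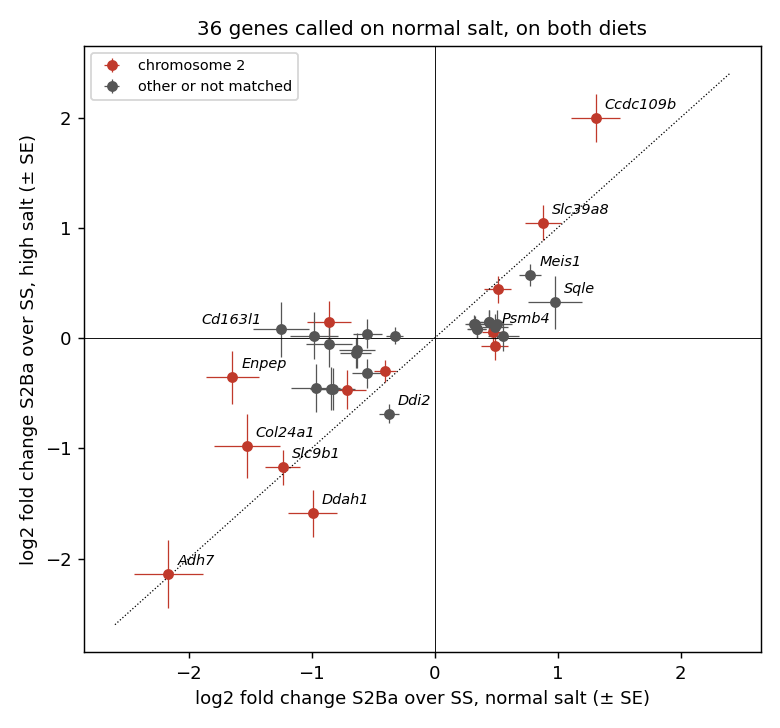
Log2 fold change of S2Ba over SS on normal salt (x axis) and on high salt (y axis) for the 36 genes called on normal salt, with bars of 1 SE, in red for chromosome 2 and grey for other or unmatched genes. On the dotted line both diets would give the same value; Slc9b1 and Adh7 lie close to it, while Cd163l1 lies near 0 on high salt.

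Slc9b1 on high salt read 1.69 ± 0.321 in S2Ba and 4.42 ± 0.433 in SS (log2 fold change -1.17, limma adjusted p = 4.8e-05, n = 5 each), Ccdc109b 6.65 ± 0.970 and 1.32 ± 0.397 (2.00, adjusted p = 2.1e-06), and Slc39a8 7.88 ± 1.803 and 3.54 ± 0.662 (1.05, adjusted p = 0.000361). Adh7 was at 0, 0.162, 0, 0.175 and 0 in the S2Ba libraries and between 0.987 and 2.90 in SS. Ddah1 was at 12.3 ± 4.65 and 36.2 ± 4.60 (-1.59, adjusted p = 6.3e-05), Meis1 at 100.3 ± 9.94 and 67.1 ± 4.35 (0.57, adjusted p = 0.0018) and Ddi2 at 98.1 ± 16.2 and 156.5 ± 10.1 (-0.69, adjusted p = 4.6e-05).

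Enpep was not called on high salt, and neither were Col24a1, Pla2g12a and Manba of the stretch (limma adjusted p = 0.0758, 0.0513 and 0.107). The S2Ba values of Enpep on high salt were 48.4, 77.4, 71.1, 34.4 and 40.1, and its SS values were 66.2, 56.9, 73.2, 68.9 and 67.6. The groups overlapped for Enpep, and its log2 fold change was -0.36 (limma adjusted p = 0.465). For Enpep the difference between the strain differences on the 2 diets was 1.29, with an adjusted p of 0.252 in limma. No gene was called for this difference in limma, 1308 (9.71%) had an unadjusted p under 0.05, and edgeR called 1 and DESeq2 10. In the stretch 8 genes were called on high salt, of which Ddit4l, Unc5c and Hs2st1 were not called on normal salt. The ribosomal and oxidative phosphorylation lists had medians of 0.00 and 0.02 on high salt.

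S2Bb, with the middle segment, shows the same genes in a second congenic strain, and its comparisons share libraries with the one above, so values are set side by side. On normal salt S2Bb read 53.1 ± 8.97 for Enpep, 1.20 ± 0.424 for Ccdc109b, 4.09 ± 0.873 for Slc9b1, 3.98 ± 1.02 for Slc39a8, 2.52 ± 0.798 for Adh7 and 73.3 ± 6.48 for Meis1 (n = 6). None of these 6 was called between S2Bb and SS (194 genes, 1.44%), and each was called between S2Ba and S2Bb (424 genes, 3.15%), with limma adjusted p-values from 1.9e-07 for Meis1 to 5.3e-05 for Slc39a8. Ddah1 was at 70.6 ± 6.92 in S2Bb, with an adjusted p of 1.1e-05 against S2Ba and 0.25 against SS.

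Other genes stood differently in S2Bb. Psmb4 was at 103.01 ± 7.95 there, near the S2Ba mean of 107.9 (adjusted p = 0.762 between the congenic strains) and above SS (adjusted p = 0.0092). Ddi2 was at 132.1 ± 4.24, Amigo2 at 13.8 ± 2.298 and Fam160a1 at 0.806 ± 0.245. Each was lower than in SS (limma adjusted p = 0.00761, 0.0474 and 0.04996) and not called between the congenic strains. In all, 4 of the 36 genes were called in the same direction between S2Bb and SS, and 17 between S2Ba and S2Bb. Sqle at 16.02 ± 3.36, Rpl18 at 206.3 ± 17.9, Rplp0 at 869.0 ± 59.7 and Txn1 at 82.3 ± 5.44 had S2Bb means between those of SS and S2Ba. These were called in neither comparison. Tada2b was at 37.3 ± 3.86 and Hnrnpm at 77.9 ± 5.91, and each was called between the congenic strains and not between S2Bb and SS.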

How the data were processed

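Total RNA libraries (TruSeq, on an Illumina HiSeq, per the labels' protocols) of aorta were processed by the authors. The submitters' processing notes name STAR 2.3.1, edgeR 3.6.8, R 3.2.3, FastQC and bcl2fastq 1.8.4; their roles were not given in the sources used here. The same holds for the genome build, the annotation and strand handling. The deposited table holds 1 normalised signal value per gene and library for 26106 genes. Whole reads were recovered from the deposited signal: with a tolerance of 0.01 reads, 100% of values were whole multiples of the value of 1 read of their library. Genes without a symbol (29) took at most 0.0195% of reads. On high salt, replicate 3 of SS and replicate 2 of S2Ba were not analysed here.

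limma 3.58.1 (R 4.3.3) with an intensity trend was fitted to log2(value + 0.5) over 13475 genes, those with a mean of at least 0.5 over 34 libraries, with 1 mean for each of 6 groups; 12631 genes were not tested. P-values were 2-sided, adjusted by the Benjamini-Hochberg method over all tested genes and called under 0.05. In data simulated for this comparison with 200 of 13475 genes changed, 40.3% of 1.5-fold, 83.6% of 2-fold and 100% of 4-fold changes were recovered, with 7 false calls. The simulated counts were independent, with the same relative spread set for every gene, and no simulated library stood apart from its group. These rates may therefore not hold for the real libraries. edgeR 4.0.16 and DESeq2 1.42.0 on the recovered reads were alternatives. The least different replicate pair had a chi-square of 14.5 per gene over genes with at least 50 reads, so no library was counted as deposited a second time. Symbols were matched to RefSeq on GRCr8 for 17796 genes (16399 by symbol, 1397 by synonym) for names, chromosome and gene order.

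The comparison, gene lists and named genes were chosen with earlier results of these data known, and 4 lists were added after the values were seen. Named were the called genes, the 2 tested neighbours on each side of called chromosome 2 genes, Enpep and Hs2st1, and, per list, the called members or up to 3 with the smallest unadjusted p; a few others (Agtr1a, Pbx3, Nfkb1, Adh5 and the Meis1 neighbours, for example) were chosen after their values were seen. Lists are described by counts and medians without a test. Results for a few genes that the rule names are not reported here.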

Additional observations from a re-analysis of the deposited data

Results flagged for a closer look

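Among the 80 groups of 6 libraries examined for the called genes and a few others, 5 held a library whose gap to its nearest neighbour was large for the range of the group. Chance flags about 1 in 20 independent groups. These groups share their libraries, and the number was not tested against that rate. SS replicate 3 was the library in 3 of them. It read 104.9 for Psmb4, where the next SS library was at 78.8, 232.3 for Rpl18, with the next at 170.2, and 11.9 for Amigo2, with the next at 22.6. SS replicate 2 read 3.96 for Col24a1, with the next at 1.90. S2Ba replicate 1 read 24.8 for Rpl22l1, with the next at 32.98. What sets these libraries apart was not tested.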

How the results depend on the processing

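The count of called genes, 36, was 31 to 36 with pseudocounts of 0.1 and 1, no filter or other filters on low values, TMM and upper quartile scaling, and edgeR on the recovered reads. It was 25 without the intensity trend, 23 with values rescaled without the most abundant gene and the mitochondrial genes (8 higher, 15 lower, against 16 and 20), 6 with the 12 libraries alone (also 6 in edgeR on those, an alternative added after seeing the data), 156 in DESeq2 (107 higher, 49 lower), 162 with array weights and 20 without SS replicates 1 and 2 (also added afterwards). Leaving out 1 library gave 9 to 306, namely 9, 11 and 12 without SS replicates 4, 5 and 6, 20, 17 and 306 without SS replicates 1, 2 and 3, and 79, 81, 20, 158, 17 and 13 without S2Ba replicates 1 to 6. The genes called also changed where the count stayed near 36. Of the 36 calls 12 were lost with no filter on low values and 9 in edgeR on the recovered reads. With upper quartile scaling 5 were lost, with TMM 3, with a pseudocount of 0.1 2 and with a pseudocount of 1 0. The cause of these changes was not tested. Of the genes called on both diets, 7, there were 17 in DESeq2, 23 with array weights and 5 to 11 without 1 library. For the difference between diets the count, 0, was 1 with TMM, upper quartile or rescaled values, in edgeR and with array weights, 10 in DESeq2 and 0 to 3 without 1 library. Over 27 alternatives, the 36 called genes and Hs2st1 gave 994 values. Of these 675 kept their direction and side of the threshold, 319 kept the direction and lost the call, and 0 reversed. Other named genes are not in this count, and some changed direction. Slc9b2, for example, had a log2 fold change of 0.25, and of -0.02 at the lowest among the alternatives. No paired analysis was possible because replicate numbers were assigned in record order and tie no library to one of another group. Depth limits the genes under about 1 normalised read, and the 12631 genes under the mean of 0.5 were not tested.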
